A study of Mus musculus with 9 samples.

Results

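The asialoglycoprotein receptor genes and a group of C-type lectin receptor genes of myeloid cells were examined in mouse lung after irradiation. The group was named in advance as 9 genes, Asgr1, Asgr2, Clec10a, Clec4n, Clec4d, Clec4e, Clec7a, Cd209a and Clec4a2, and the choice of these genes used their difference between the irradiated and control arrays. Their differences are therefore a description, with no p-value, and where the calls of the fit across all genes are counted for them, nothing is read from the count. The lists of other genes set beside them were also chosen with earlier results of these data known, so their counts are descriptions too. Of the 9 genes, 8 were found on the arrays through the RefSeq accessions of the probes, among 19694 named genes in all. Clec7a was not matched by any accession, so no value is given for it. Each gene was represented by its brightest probe, the probe with the highest mean over the 9 arrays. The 8 genes had 10 probes, each on 1 spot, and all 10 exceeded the filter for dim probes, 1.4 times local background, on all 9 arrays.

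RNA was taken from lungs of male C57BL/6 mice, whose age the labels give as 10 weeks. In the study's methods this is the age of the mice in the experiment, and irradiated lungs were taken some time after exposure, so the age at sampling is not known for these arrays. The labels name 4 arrays Control and 5 Irradiated, and state that zoletil and rompun were given as anesthetics for irradiation. Per the study's methods, the left lung was irradiated either focally, with the exposed area and the neighboring tissue taken separately, or diffusely, and RNA was pooled before labeling. The labels of the 5 irradiated arrays give no dose, lung region or time, so their spread includes any such difference, and p-values measure only the spread between these pooled samples.

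Many C-type lectins bind sugars or lipids through a calcium-dependent carbohydrate recognition domain. The asialoglycoprotein receptor, formed from the products of Asgr1 and Asgr2, is best known from hepatocytes, where it takes up serum glycoproteins that have lost terminal sialic acid and expose galactose. Clec10a encodes a macrophage and dendritic cell lectin that also binds galactose and N-acetylgalactosamine. Clec4n (Dectin-2), Clec4d (MCL) and Clec4e (Mincle) recognize fungal and mycobacterial glycans or glycolipids and signal through the adaptor FcR gamma chain, the kinase Syk and the scaffold Card9. Cd209a is a dendritic cell lectin of the DC-SIGN family, and Clec4a2 (DCIR) is an inhibitory receptor that carries an ITIM motif.

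Most of the genes lie in clusters, but Cd209a is on chromosome 8, and 106 protein-coding genes lie between Clec4e and Clec7a. According to RefSeq (assembly GRCm38.p6), Asgr1 and Asgr2 are neighbors on chromosome 11 with 0 protein-coding genes between them, and only Mgl2 lies between Asgr2 and Clec10a. Clec4n, Clec4d and Clec4e are direct neighbors on chromosome 6, with Clec4b2 between Clec4a2 and Clec4n. The table of promoter windows, which hold 250 bases before and 50 bases after a gene's start, has entries for 7 of the 9 genes. Those of Asgr1 and Asgr2 are shown because these neighbors had opposite differences in the arrays, and those of Clec4d and Clec4e because both are myeloid genes of the same cluster. Capitals mark matches on either strand to a core of the hepatocyte nuclear factor 4 site (CAAAGTCC), to a PU box (GAGGAA) and to an AP-1 site (TGANTCA). The letters were chosen after the sequences were seen.
Asgr1, chr11:70054105-70054404, plus strand, the second of its 2 listed starts: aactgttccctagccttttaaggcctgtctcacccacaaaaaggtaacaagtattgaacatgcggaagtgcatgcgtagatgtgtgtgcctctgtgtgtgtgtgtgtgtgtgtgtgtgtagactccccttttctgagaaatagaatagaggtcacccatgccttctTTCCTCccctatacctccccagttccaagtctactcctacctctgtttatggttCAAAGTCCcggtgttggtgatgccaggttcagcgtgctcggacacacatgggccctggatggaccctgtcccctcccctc
Asgr2, chr11:70092394-70092693, plus strand: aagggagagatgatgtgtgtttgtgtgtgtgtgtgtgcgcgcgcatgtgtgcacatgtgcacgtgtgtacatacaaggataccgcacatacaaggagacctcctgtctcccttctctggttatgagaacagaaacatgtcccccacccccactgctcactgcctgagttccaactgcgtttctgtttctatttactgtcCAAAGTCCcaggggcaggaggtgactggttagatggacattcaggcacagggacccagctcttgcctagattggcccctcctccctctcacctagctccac
Clec4d, chr6:123261857-123262156, plus strand: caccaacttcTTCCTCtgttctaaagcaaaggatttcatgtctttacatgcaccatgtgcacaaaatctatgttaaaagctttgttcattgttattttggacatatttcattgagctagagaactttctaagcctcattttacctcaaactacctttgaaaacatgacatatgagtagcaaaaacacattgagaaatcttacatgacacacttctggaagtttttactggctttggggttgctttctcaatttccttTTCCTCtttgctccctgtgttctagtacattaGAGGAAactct
Clec4e, chr6:123289822-123290121, minus strand: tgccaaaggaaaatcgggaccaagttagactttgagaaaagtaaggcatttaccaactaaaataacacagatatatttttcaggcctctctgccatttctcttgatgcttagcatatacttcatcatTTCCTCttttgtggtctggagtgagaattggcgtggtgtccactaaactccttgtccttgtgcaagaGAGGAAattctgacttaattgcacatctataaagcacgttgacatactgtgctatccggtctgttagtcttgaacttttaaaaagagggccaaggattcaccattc
The windows of Asgr1 and Asgr2 each held 1 match to CAAAGTCC, 30 and 51 bases before the start, and 1.42% of all 32851 windows hold these letters. The window at the other start of Asgr1 held none. PU boxes were found 3 times in the window of Clec4d, 2 times in that of Clec4e and 1 time in the Asgr1 window shown, and in 28.3% of all windows. Of all 9 windows of the members, shown or not, 5 held a PU box, among them those of Clec7a. The windows of Clec4a2, a myeloid gene of the same cluster, and of Cd209a held none. The AP-1 letters, present in 7.81% of all windows, were in none of the 4 windows shown, and in the windows of the other Asgr1 start and of Clec4a2. A match is a description of the sequence and not evidence that a factor binds there.

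All values below are log2 intensities after quantile normalization, in which a difference of 1 is a doubling. The number of arrays limits their precision. The scanner software called 72.8% to 89.1% of the gene spots well above background on each array, and 0 spots were saturated. The lung label was borne out by the epithelial markers: all 10 measured, among them surfactant genes, were well above background on all 9 arrays. Of the 9 arrays, 8 formed 4 pairs of 1 control and 1 irradiated array that shared scan features, namely the local background, its pixel spread, the image offset and the number of uneven spots. These were Control 1 with Irradiated 2, Control 2 with Irradiated 3, Control 3 with Irradiated 4 and Control 4 with Irradiated 5. Irradiated 1 had no partner, and of the irradiated arrays it lay nearest to the controls for Asgr1, Clec4n and Cd209a.

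Asgr1 was the member with the greatest difference. Its log2 intensity was 10.04, 10.55, 10.21 and 10.60 in Controls 1 to 4 and 8.98, 7.60, 7.10, 7.63 and 8.33 in Irradiated 1 to 5. All 5 irradiated arrays lay below all 4 controls, with a gap of 1.05 between the groups, and the irradiated array nearest the controls was Irradiated 1. The mean was 10.35 ± 0.27 (SD, n = 4) in controls and 7.93 ± 0.73 (SD, n = 5) in irradiated arrays, a log2 difference of −2.42 (SE 0.34), or 5.35-fold lower. In bulk tissue, fewer cells of a type and less RNA per cell cannot be told apart. The probe was well above background on all 9 arrays.

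A second Asgr1 probe gave the same direction. It read 7.38, 8.20, 7.08 and 8.27 in the controls and 6.75, 3.51, 4.01, 3.37 and 5.55 in the irradiated arrays, again without overlap. Here the log2 difference was −3.09 (SE 0.68). This probe was well above background on all 4 controls but on 3 of the 5 irradiated arrays, so the size of its difference is less certain than that of the brighter probe.

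Asgr2, which encodes the other subunit of the receptor, did not share the lower level of Asgr1. Its log2 intensity was 9.13, 9.48, 8.54 and 9.01 in the controls and 9.86, 9.82, 9.30, 9.35 and 9.49 in the irradiated arrays. The groups overlapped, since Control 2 lay above Irradiated 3 and Irradiated 4, and 3 of the 5 irradiated arrays were above all controls. Asgr2 differed by 0.52 on the log2 scale (SE 0.20). Within each array, the log2 ratio of Asgr1 to Asgr2, set to a mean of 0 in the controls, was between −0.40 and 0.36 in the controls and between −3.52 and −2.18 in the irradiated arrays. Its mean in the irradiated arrays was −2.94 ± 0.61 (SD, n = 5), a 7.68-fold lower ratio of signal, which describes an unequal change of the 2 subunit genes and not the number of receptors.

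**Figure D1:**
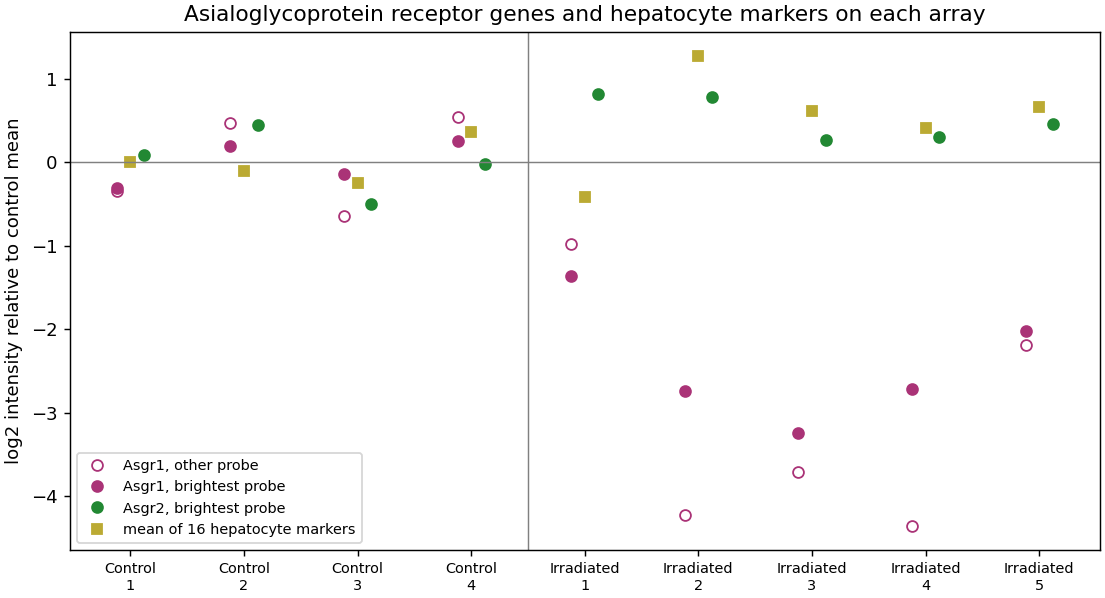
Log2 intensity relative to the control mean on each of the 9 arrays (horizontal axis) for the 2 Asgr1 probes, the Asgr2 probe and the mean of 16 hepatocyte markers. Both Asgr1 probes lie below all controls on the 5 irradiated arrays, while Asgr2 lies above 0 on all 5 and the hepatocyte markers on 4 of them.

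Because both subunits are known from hepatocytes, markers of that cell type were set beside them. Of 16 hepatocyte markers measured, 0 passed the threshold of the limma test across all probes (adjusted p under 0.05), 3 had an unadjusted p under 0.05, 11 had a higher and 5 a lower mean in the irradiated arrays, and the median log2 difference was 0.39. With the scan pairs as a block, 1 rose (fixed) or 2 rose and 1 fell (random), and 1 rose without Irradiated 1, against 3.82%, 9.45% and 1.69% of all genes. The share of all genes with an unadjusted p under 0.05 was 12.3%. Of the 16, 9 were well above background on all arrays. For the 16 markers together, the summed intensity was 99503 to 124310 in the controls and 105938 to 159078 in the irradiated arrays. Most of this sum came from Trf, named after its values were seen. Its log2 intensity was 16.28 to 16.64 in the controls and 16.53 to 17.10 in the irradiated arrays. The next highest control mean of the list was 13.01, for Apoa2. The sum therefore mainly describes 1 gene and not the list. Alb, the most abundant hepatocyte product, had log2 intensities of 4.20 to 6.88 in the controls and 5.37 to 7.89 in the irradiated arrays and was well above background on 7 of the 9 arrays. Fgg, a fibrinogen chain, had the greatest difference of the list at 2.77 (SE 1.25, limma adjusted p = 0.510), followed by Serpina1c, an alpha-1 antitrypsin, at 1.44 (SE 0.73, limma adjusted p = 0.575). Fgg read 7.80 to 9.18 in the controls, 6.35 in Irradiated 1, below all controls, and 10.99 to 13.11 in the other 4 irradiated arrays. The greatest difference downward was that of Cyp2e1, named after its values were seen, at −1.12 (SE 0.37, limma adjusted p = 0.297). The mean level of the 16 markers relative to the controls was −0.25 to 0.36 in the controls, −0.42 in Irradiated 1 and 0.41 to 1.27 in the other 4 irradiated arrays. Their part in the values of Asgr1 and Asgr2 was not tested.

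Clec10a and Cd209a had similar profiles, with 4 irradiated arrays above the controls and Irradiated 1 apart. Clec10a read 11.22, 11.24, 10.53 and 11.23 in the controls and 10.29, 11.79, 11.78, 11.65 and 11.51 in the irradiated arrays. Irradiated 1 was the lowest of all 9 arrays, and Control 3 was low among the controls. The log2 difference was 0.35 (SE 0.31) over all arrays, 0.62 without Irradiated 1 and 0.17 without Control 3.

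The brightest probe of Cd209a read 10.55, 10.29, 10.02 and 10.52 in the controls and 10.30, 11.09, 11.06, 10.90 and 11.04 in the irradiated arrays. Irradiated 1 lay within the range of the controls and the other 4 lay above it. The log2 difference was 0.54 (SE 0.18) over all arrays, 0.68 without Irradiated 1 and 0.33 with the normalized table deposited by the authors. The other Cd209a probe was dim, well above background on 3 of 4 controls and on all 5 irradiated arrays, and its log2 difference was 0.96 (SE 0.37).

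Clec4n, the Dectin-2 gene, was the member with the greatest difference upward. Its log2 intensity was 12.78, 12.25, 12.07 and 11.58 in the controls and 12.91, 13.78, 13.55, 13.57 and 13.14 in the irradiated arrays. All 5 irradiated arrays lay above all controls, but the gap between Control 1 and Irradiated 1 was only 0.12. Clec4n differed by 1.22 on the log2 scale (SE 0.25), or 2.33-fold higher. The probe was well above background on all 9 arrays.

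Its neighbors Clec4d and Clec4e overlapped between the groups. Clec4d read 12.06, 11.13, 11.41 and 10.64 in the controls and 11.65, 11.30, 12.33, 11.98 and 11.28 in the irradiated arrays, and only Irradiated 3 was above all controls. The log2 difference was 0.40 (SE 0.30), less than the SD of 0.59 among the controls. It was 0.18 without Control 4, 0.24 without Irradiated 3 and 0.65 without Control 1. Clec4e read 10.30, 9.52, 10.10 and 9.81 in the controls and 9.55, 10.02, 10.48, 9.92 and 9.98 in the irradiated arrays. Its log2 difference was 0.059 (SE 0.21), and the irradiated arrays covered nearly the same range as the controls. It was negative without Control 2 (−0.077) and without Irradiated 3 (−0.063).

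Clec4a2, the inhibitory receptor gene, was measured by 1 dim probe that was well above background on 3 of 4 controls and 4 of 5 irradiated arrays. It read 5.13, 6.21, 7.29 and 5.37 in the controls and 4.46, 5.08, 4.91, 7.51 and 5.59 in the irradiated arrays. Control 3 and Irradiated 4 were the high arrays, and they are a pair by their scan features. Irradiated 1, 2 and 3 lay below all controls. The log2 difference was −0.49 (SE 0.64), less than the SD of either group (0.98 in controls, 1.19 in irradiated arrays). It was −0.067 without Control 3, −0.23 without Irradiated 1, −0.77 without Control 1 and −1.01 without Irradiated 4.

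**Figure D2:**
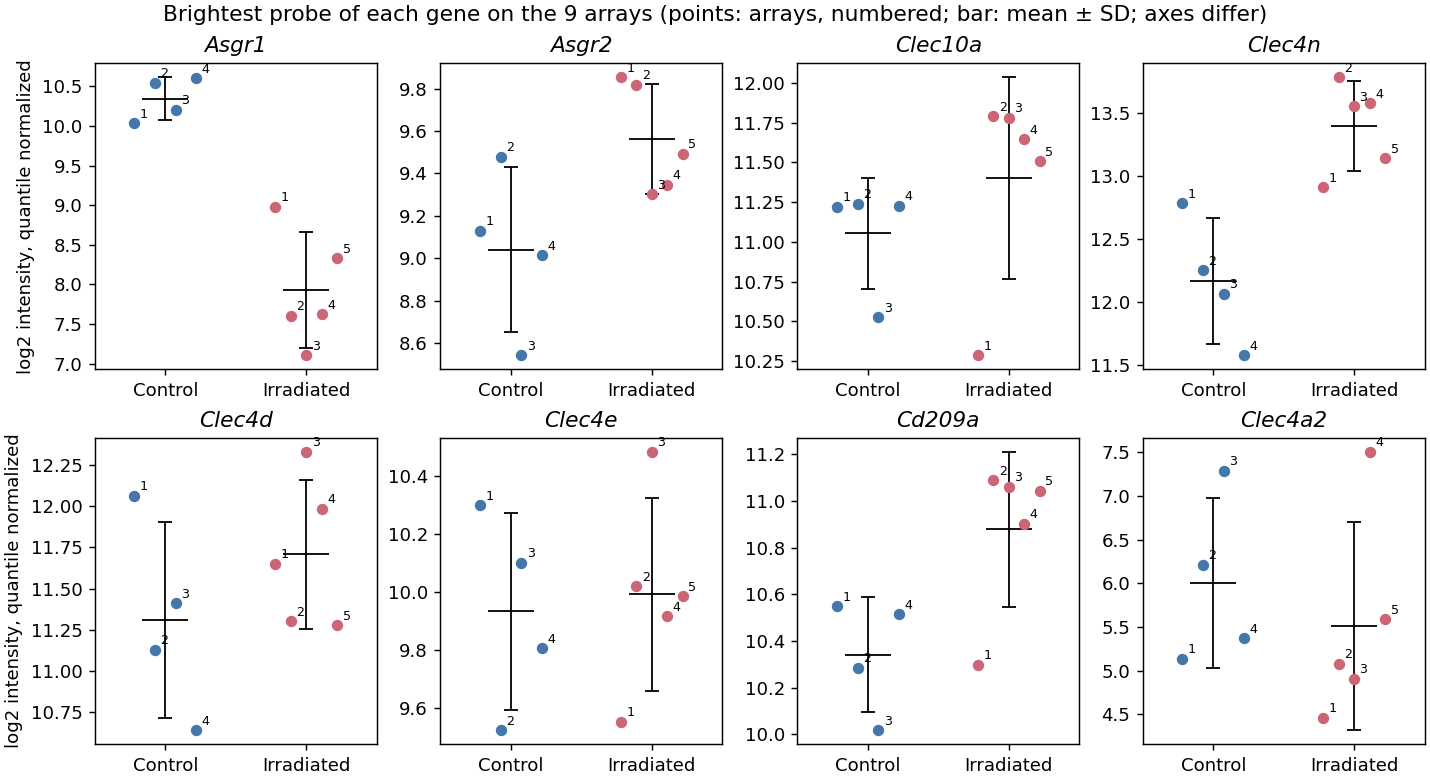
Log2 intensity of the brightest probe of the 8 genes (vertical axes, which differ between panels) in the 4 control and 5 irradiated arrays, numbered by replicate, with the mean and SD of each group. Asgr1 and Clec4n do not overlap between the groups, and Irradiated 1 sits low for Clec10a and Cd209a.

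In the limma fit across all 39303 probes, 1 of the 8 members, Asgr1, passed the threshold, against 0.416% of all 19694 genes in either direction and 0.152% in the lower direction. Since the members were chosen from this contrast, nothing is read from that count. The count of members changed when single arrays were left out. It was 3 without Irradiated 1, when Clec4n and Cd209a also passed and 1.69% of all genes did. Without any of the other 8 arrays taken one at a time it was 0. All genes past the threshold then numbered 5 to 25, against 82 with all arrays. The log2 difference of Asgr1 was between −2.66 and −2.20 whichever array was left out. Groups did not overlap for 2 of the 8 members, Asgr1 and Clec4n, against 5.15% of all genes, with 3.4% higher and 1.76% lower. The median log2 difference of the 8 members was 0.37 and that of all genes was 0.0085, and 6 of the 8 had a higher mean in the irradiated arrays, against 51.9% of all genes.

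The differences were also taken within the 4 scan pairs, which each hold 1 array of either group. Asgr1 was lower in 4 of 4 pairs, by −3.44 to −2.27. Clec4n was higher in 4 of 4 pairs, by 1.00 to 1.56, Cd209a by 0.53 to 0.88 and Clec10a by 0.28 to 1.12. Asgr2 and Clec4d were higher in 3 of the 4 pairs, and Clec4e and Clec4a2 were higher in 2 and lower in 2. For Clec10a the mean within pairs, 0.63 ± 0.35 (SD, n = 4 pairs), compared with 0.35 over all arrays. The pairs leave out Irradiated 1. With the pairs as a fixed or as a random block, 3 members were past the threshold, namely Asgr1, Clec4n and Cd209a, against 3.82% and 9.45% of all genes. As the members were chosen from this contrast, nothing is read from these counts either.

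**Figure D3:**
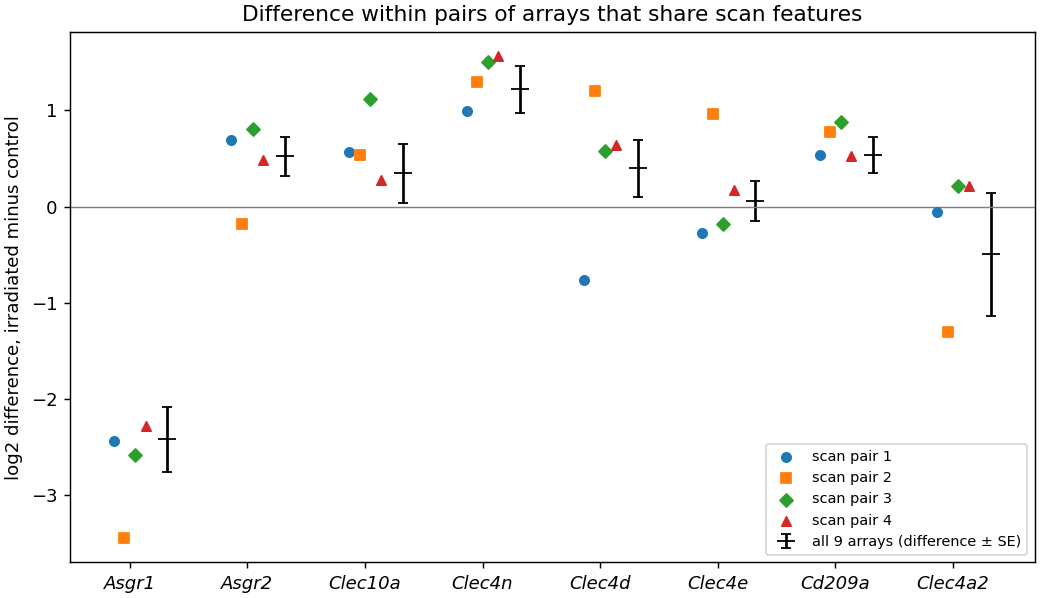
Log2 difference, irradiated minus control, of each gene within the 4 scan pairs (colored points) and over all 9 arrays (black bar with SE). Asgr1 lies below 0 and Clec4n, Cd209a and Clec10a lie above 0 in 4 of 4 pairs, while Asgr2, Clec4d, Clec4e and Clec4a2 fall on both sides.

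The genes with the most similar profile were found by the root mean square difference of the centered log2 values over the 9 arrays, among up to 15238 genes well above background on all of them. This measure follows the group difference that chose the members, and all profiles share the same 9 arrays. For Asgr1 the closest genes included Aox3, an aldehyde oxidase, at 0.46, and Capn13, a calpain, at 0.50. Aox3 read 11.87, 12.06, 12.11 and 12.38 in the controls and 11.44, 10.42, 9.93, 10.21 and 10.77 in the irradiated arrays, with no overlap and with Irradiated 1 nearest the controls, as for Asgr1. For Clec4n they were Krtap11-1, a keratin-associated protein gene, at 0.22, F7, coagulation factor VII, at 0.25, and Mmp19, a matrix metalloproteinase, at 0.26. The closest gene to Asgr2 was Insl5, to Clec10a Basp1, to Clec4d Teddm1a, to Clec4e Tg, to Cd209a Glipr1 and to Clec4a2 Lrrc2.

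Among the members themselves, Clec10a and Cd209a were the closest pair, at 0.26. Cd209a stood at rank 40 of 15237 genes for Clec10a, and Clec10a at rank 314 for Cd209a. For Clec4d the closest member was its neighbor Clec4e at rank 247. No member was close to Asgr1, for which the nearest stood at rank 12825. Mgl2, named here for its place between Asgr2 and Clec10a, had a log2 difference of −0.09 (SE 0.17).

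The rest of the C-type lectin family was counted in 40 other receptors and collectins. The number past the limma threshold was 0, while 10 had an unadjusted p under 0.05, against 12.3% of all genes. With the scan pairs as a block, 5 rose and 0 fell (fixed) or 7 rose and 2 fell (random), against 3.82% and 9.45% of all genes. Of the 40, 27 had a higher and 13 a lower mean in the irradiated arrays, with a median log2 difference of 0.29. The greatest differences were those of Cd209e, another DC-SIGN homolog, at 1.54 (SE 0.55, limma adjusted p = 0.340), and Clec4g, an endothelial lectin, at 1.03 (SE 0.33, limma adjusted p = 0.286). Groups did not overlap for 5 of the 40, all higher, against 3.4% of all genes. These were Mrc1, Cd209c, Clec4b1, Clec4g and Olr1, named after their values were seen. Mrc1, the macrophage mannose receptor, read 12.76, 12.48, 12.30 and 12.28 in the controls and 13.01, 13.03, 13.15, 13.15 and 12.89 in the irradiated arrays (log2 difference 0.60, SE 0.11, limma adjusted p = 0.0652).

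Signaling genes downstream of the receptors were counted next. Of 30 adaptors, kinases, phosphatases and transcription factors, 0 passed the limma threshold, 2 had an unadjusted p under 0.05, against 12.3% of all genes, and the median log2 difference was 0.083. Blocking on the scan pairs gave 0 (fixed) or 2 that rose (random), against 3.82% and 9.45% of all genes. The greatest were Malt1, the paracaspase that acts with Card9, at 0.55 (SE 0.23, limma adjusted p = 0.452), and Tyrobp, an ITAM adaptor, at 0.42 (SE 0.16, limma adjusted p = 0.383).

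Cytokines, chemokines and enzymes known to be induced downstream of these receptors had a median log2 difference of 0.69 over 19 genes, with 15 higher and 4 lower. None of the 19 passed the limma threshold and 8 had an unadjusted p under 0.05, against 12.3% of all genes. With the scan pairs as a block, 4 (fixed) or 8 (random) passed, all higher, against 3.82% and 9.45% of all genes, and 5 passed without Irradiated 1, against 1.69%. The list was chosen with earlier results of these data known, so these counts are a description. Cxcl1, a neutrophil chemokine, read 6.51, 6.08, 5.32 and 5.28 in the controls and 6.24, 9.19, 8.42, 9.28 and 9.71 in the irradiated arrays, a log2 difference of 2.77 (SE 0.64, limma adjusted p = 0.127). Il6 had a log2 difference of 2.53 (SE 0.66, limma adjusted p = 0.178). For both genes Irradiated 1 lay among the controls and the other 4 irradiated arrays lay above them. That did not hold for the whole list. For 3 of the 19, Ccl3, Ccl4 and Ptgs2, all irradiated arrays including Irradiated 1 lay above all controls, against 3.4% of all genes. These 3 were named after their values were seen.

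Of 24 genes that make, trim or bind galactose-ended glycans, 1 rose and 0 fell, against 0.416% of all genes. The median log2 difference was 0.046. With the scan pairs as a block, 1 rose and 1 fell (fixed) or 3 rose and 3 fell (random). The shares of all genes past the threshold under these blocks were 3.82% and 9.45%. The gene that rose in the fit without a block was Lgals3, encoding galectin-3, a galactoside-binding lectin of macrophages and epithelium. Lgals3 read 15.81, 15.45, 15.55 and 15.42 in the controls and 16.08, 16.20, 16.26, 16.63 and 16.32 in the irradiated arrays (log2 difference 0.74, SE 0.12, limma adjusted p = 0.0457). All irradiated arrays lay above all controls, but the call was lost without each of the 8 arrays other than Irradiated 1, with scaling to the 75th percentile and with the authors' normalized table. Over the 4 lists together, 1 of 113 genes passed the threshold (0.885%), against 0.416% of all genes. This count was 6 without Irradiated 1, against 1.69% of all genes. Without Control 1 it was also 1, but a different gene, and without each of the other 7 arrays it was 0. All genes past the threshold numbered 25 without Control 1 and 5 to 17 without each of those 7. It was 11 with the scan pairs as a fixed block and 25 with them as a random block, against 3.82% and 9.45% of all genes.

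Markers of the cells that carry these receptors were counted by cell type. All 12 recruited and interstitial macrophage markers had a higher mean in the irradiated arrays, with a median log2 difference of 0.86. In limma 0 of the 12 passed the threshold, against 0.416% of all genes, and 7 had an unadjusted p under 0.05, against 12.3%. Groups did not overlap for 3, Gpnmb, Trem2 and Adgre1, against 3.4% of all genes higher. The smallest differences were those of Cx3cr1 and Csf1r, each 0.09. Apart from Gpnmb, these genes were named after their values were seen. With the scan pairs as a block, 7 (fixed) or 9 (random) of the 12 passed, all higher, and 4 passed without Irradiated 1, against 3.82%, 9.45% and 1.69% of all genes. This list too was chosen with earlier results of these data known, so its counts are a description. The mean level of the 12 markers relative to the controls was −0.23 to 0.27 in the controls, −0.02 in Irradiated 1 and 0.95 to 1.59 in the other 4 irradiated arrays. Their summed intensity was 133280 to 157010 in the controls and 120578 to 265465 in the irradiated arrays. Gpnmb, a glycoprotein of lipid-laden macrophages, had the greatest difference at 2.39 (SE 0.66, limma adjusted p = 0.209), then Spp1, osteopontin, at 2.26 (SE 0.74, limma adjusted p = 0.298). The 4 arrays in which these markers were high are those in which Clec10a and Cd209a lay above the controls and Clec4n was highest, and the part of the markers in those values was not tested.

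Dendritic cell markers, which bear on Clec10a and Cd209a, had a median log2 difference of 0.18 over 13 genes, 8 higher and 5 lower, with 0 past the threshold. Under the random block of scan pairs 1 rose and 1 fell, against 9.45% of all genes. The summed intensity of these markers was 90972 to 110114 in the controls and 83006 to 113297 in the irradiated arrays. The greatest differences were those of Xcr1 at 1.01 (SE 0.53, limma adjusted p = 0.597) and Fscn1 at 0.89 (SE 0.33, limma adjusted p = 0.360). Mycl, named after its values were seen, was the only 1 of the 13 whose groups did not overlap, against 5.15% of all genes. It was lower by −0.87 (SE 0.21, limma adjusted p = 0.155). Alveolar macrophage markers were lower for 9 of 13 genes, with a median of −0.30 and 0 past the threshold. Fabp1 was at −1.85 (SE 0.81, limma adjusted p = 0.486) and Cidec at −1.75 (SE 0.46, limma adjusted p = 0.187). Others were higher, among them Itgax at 0.70 (SE 0.17, limma adjusted p = 0.15) and Plet1 at 0.53 (SE 0.15, limma adjusted p = 0.221), both named after their values were seen. The groups did not overlap for Plet1, which was higher, and Cidec, which was lower, against 3.4% of all genes higher and 1.76% lower. With the scan pairs as a block, 1 rose and 1 fell (fixed) or 2 rose and 3 fell (random). The shares of all genes past the threshold under these blocks were 3.82% and 9.45%. Without Irradiated 1, 1 rose and 1 fell, against 1.69% of all genes.

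Clec4d and Clec4e are also known from neutrophils and monocytes. Of 12 neutrophil markers 0 passed the threshold and 10 had a lower mean, with a median of −0.42. Ngp, a granule protein gene, was at −1.99 (SE 0.62, limma adjusted p = 0.270), while Lcn2, which epithelium also makes, was at 1.74 (SE 0.38, limma adjusted p = 0.112). Of 12 monocyte markers 1 rose, against 0.416% of all genes. It was Fn1 (log2 difference 0.90, SE 0.13, limma adjusted p = 0.0326), which encodes fibronectin and is made by fibroblasts too. Of the 12, 9 had a lower mean, and the median was −0.20. Groups did not overlap for Fn1, which was higher, and F13a1, which was lower, against 3.4% of all genes higher and 1.76% lower. F13a1, named after its values were seen, had a log2 difference of −0.50 (SE 0.098, limma adjusted p = 0.0763). Markers shared by all leukocytes had a median of 0.057 over 10 genes, between −0.37 for Cd37 and 0.44 for Cd53, with 0 past the threshold. Under the random block of scan pairs, 1 monocyte marker rose and 3 fell, and 1 neutrophil marker rose and 2 fell. The share of all genes past the threshold under this block was 9.45%. With the fixed block and without Irradiated 1, 1 monocyte and 1 neutrophil marker rose, against 3.82% and 1.69% of all genes. The call of Fn1 was lost without each of the 8 arrays other than Irradiated 1. Over all marker lists together, 1 of 98 genes passed the threshold (1.02%), against 0.416% of all genes. This count was 9 without Irradiated 1, against 1.69% of all genes, and 0 without each of the other 8 arrays. All genes past the threshold numbered 5 to 25 without each of those 8. With all 9 arrays kept, the count of markers also depended on the scan pairs. It was 12 with the scan pairs as a fixed block and 27 with them as a random block, against 3.82% and 9.45% of all genes.

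**Figure D4:**
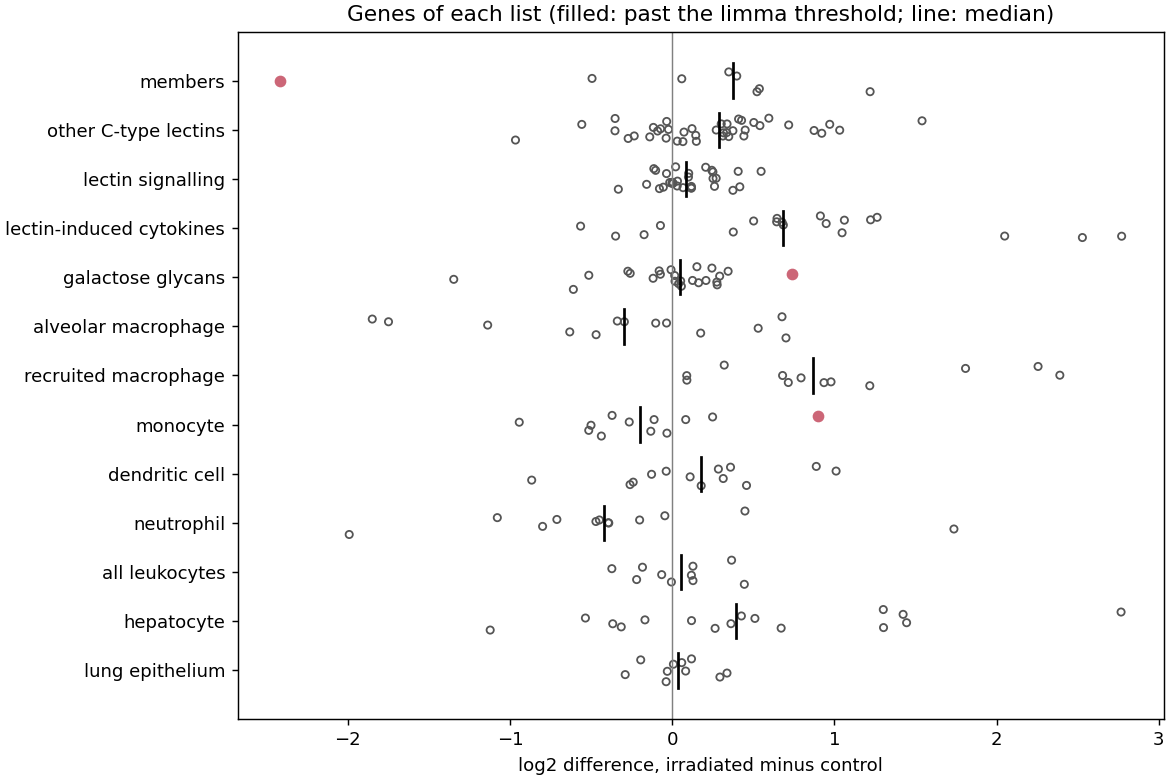
Log2 difference, irradiated minus control, of each gene (horizontal axis) in the members and in 12 lists of pathway and marker genes, with filled points for genes past the limma threshold and a line at each median. Asgr1, Lgals3 and Fn1 are the filled points, and the recruited macrophage markers all lie above 0.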

How the data were processed

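Expression was measured on 9 single-color Agilent mouse arrays of lung RNA, 4 labeled Control and 5 labeled Irradiated. The authors deposited, per array, the intensity values of Agilent Feature Extraction without normalization between arrays (processed signal, median signal and local background), and a table of normalized intensity values. Within each array that table ranked spots as the median signal minus the local background does, on a linear scale with column medians of 2054.5 to 2055.9, and its target distribution stays unknown. Spots were numbered by their position, since the file numbers did not match the table (rank correlation −0.0059 to 0.0046, against 1 by position).

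The processed signal was used. After removal of control and outlier spots, a probe was kept if its median signal exceeded 1.4 times local background on 4 or more arrays (39303 of 39429). Quantile normalization was applied to the log2 values. Probes were named through RefSeq accessions (26049 probes, 19747 symbols). In the files of Control 4 and Irradiated 5 the accession differs for 9757 spots, and the accessions of the other 7 files were used. Groups were compared with limma 3.58.1 (R 4.3.3) with a trend of variance on intensity, without covariates, and with Benjamini-Hochberg adjustment over all probes, at an adjusted p under 0.05. The fit was also run on simulated data with noise drawn independently for each array. That run does not cover arrays that deviate together, as those of the scan pairs did. The members and lists were chosen with earlier results of these data known. Named genes were the members, up to 4 genes per direction of each list past the threshold, or else the 2 with the greatest difference, and the genes closest in profile, of which 1 is not reported here. Of the lists, Neu4 was the 1 gene not well above background on any array. Alternatives were normexp, scaling to the 75th percentile, 2 other filters, the normalized table, blocks, array weights, no trend, a stricter threshold, other probes and leaving out each array.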

Additional observations from a re-analysis of the deposited data

Results flagged for a closer look

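Dixon's criterion was applied to 44 groups of 4 control or 5 irradiated arrays, over the probes of the members and the lists, and 4 held an array far from the rest of its group, where chance gives about 1 in 20. Clec10a was low in Control 3, at 10.53, while the remaining controls read 11.22 to 11.24. It was also low in Irradiated 1, at 10.29, while the remaining irradiated arrays read 11.51 to 11.79. Cd209a was low in Irradiated 1, at 10.30, with the rest at 10.90 to 11.09. The alveolar macrophage markers were high in Control 1, at 0.44 relative to the control mean against −0.21 to −0.11. No explanation was tested for these values.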

How the results depend on the processing

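Under the alternatives, Asgr1 kept a lower level, between −3.09 with its other probe and −2.10 with normexp, and Clec4e was the only member whose sign changed. The number of genes past the threshold was 82 in the main setting, 131 with the filter on all 9 arrays, 25 with the authors' normalized table, 127 with array weights, 17 with no variance trend, and 5 at the stricter threshold of 0.01. The members past it were 1, and 0 without the trend and at 0.01. The pathway genes were 1, and 0 with 75th percentile scaling, with the table, without the trend and at 0.01. The marker genes were 1, and 0 without the trend and at 0.01. The share of lower genes among those called was 36.6%, but 49.4% with 75th percentile scaling, 56% with the table, 23.5% with no variance trend, 20% at 0.01 and 11.8% to 48% without 1 array. Leaving out 1 array gave 5 to 333 genes, 0 to 3 members, 0 to 6 pathway genes and 0 to 9 marker genes, the highest without Irradiated 1. The cause was not tested.

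The labels share replicate numbers 1 to 4, but same-numbered arrays did not deviate together (correlations of 0.062, −0.017, −0.049 and −0.17), so the numbers do not pair them. With the replicate block, 1 gene, 0 members, 0 pathway genes and 0 marker genes passed in limma, while 2035 genes and 3 members had an unadjusted p under 0.05. Arrays paired by scan features did deviate together (0.20 to 0.46). With these pairs as a fixed block, 753 genes, 3 members, 11 pathway genes and 12 marker genes passed, and as a random block 1861, 3, 25 and 27. Dim probes limit Clec4a2, the other Cd209a probe and the other Asgr1 probe.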
